A study of Rattus norvegicus with 2 samples.

Results

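Pla2g2a, RatNP-3b, Lyz2, Nos2 and Cd14 are genes of antibacterial defence, and this account follows each of their probe sets in the duodenal mucosa of an immobilized rat and a control rat. A probe set is a group of short oligonucleotides on the array that reads 1 transcript. The probe sets were chosen by their gene annotation, and 9 of the 8740 on the array carry 1 of these 5 symbols alone. Nos2 has 4 of them, Cd14 has 2, and the other genes have 1 each. A further 3 probe sets are annotated to Nos2 and to the pseudogene Nos2-ps1 together and are given apart. The genes were picked with their values on these arrays known, so their own differences are a description and support nothing.

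The immobilized rat was held in an immobilization cage for 2 weeks. The control rat spent the same 2 weeks in a metabolic cage and was not immobilized. Both were male Wistar rats aged 15 weeks, and no mutation or drug is named for either. Total RNA of the duodenal mucosa, labelled as epithelial cells, was hybridised to 1 Affymetrix rat U34A array per rat. Whether the RNA of several animals was pooled is not given in the sources used here. As each condition had 1 array, the variation between rats is unknown here, none of the differences below has a replicate check, and no p-values were computed. Precision is limited by this number of arrays.

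Small-intestinal crypts hold Paneth cells, which release granules of antibacterial proteins into the gut lumen. Secreted phospholipase A2 and lysozyme are classical Paneth granule proteins, and both are also made by other cells. Lysozyme is abundant in macrophages and neutrophils. Alpha-defensins are small pore-forming peptides of Paneth cells and neutrophils, and NP-3 was described in rat neutrophils. Nos2 makes nitric oxide in large amounts after bacterial products or interferon gamma reach a cell, and Cd14 presents bacterial lipopolysaccharide to the Toll-like receptor Tlr4.

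The regions just before the start sites of 4 of these genes are shown as a description. Nos2 had no such region in the source used. The sequences are from RefSeq, build GRCr8, each 250 bases long, 5′ to 3′ on the strand of the gene. Pla2g2a lies at chr5:156359475-156359724 on the plus strand. RatNP-3b lies at chr16:77248978-77249227, Lyz2 at chr7:54798012-54798261 and Cd14 at chr18:28611159-28611408, all on the minus strand. Capitals mark each match to TTAAATA, an A- and T-rich word read on both strands, which was chosen after the sequences had been read. Which windows hold the word therefore supports nothing about the signals.
Pla2g2a: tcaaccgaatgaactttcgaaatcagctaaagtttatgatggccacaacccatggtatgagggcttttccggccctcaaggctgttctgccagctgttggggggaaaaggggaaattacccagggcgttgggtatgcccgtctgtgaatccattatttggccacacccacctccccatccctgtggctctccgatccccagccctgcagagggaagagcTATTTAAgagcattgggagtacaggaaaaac
RatNP-3b: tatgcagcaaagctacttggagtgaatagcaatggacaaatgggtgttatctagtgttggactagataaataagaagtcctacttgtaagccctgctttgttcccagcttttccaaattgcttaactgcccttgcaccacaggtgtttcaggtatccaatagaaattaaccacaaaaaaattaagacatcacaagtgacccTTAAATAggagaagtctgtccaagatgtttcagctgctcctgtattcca
Lyz2: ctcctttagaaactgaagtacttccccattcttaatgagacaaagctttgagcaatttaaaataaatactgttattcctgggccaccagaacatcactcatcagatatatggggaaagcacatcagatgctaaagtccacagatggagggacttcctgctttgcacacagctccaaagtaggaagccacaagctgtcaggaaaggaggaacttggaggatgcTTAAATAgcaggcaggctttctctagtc
Cd14: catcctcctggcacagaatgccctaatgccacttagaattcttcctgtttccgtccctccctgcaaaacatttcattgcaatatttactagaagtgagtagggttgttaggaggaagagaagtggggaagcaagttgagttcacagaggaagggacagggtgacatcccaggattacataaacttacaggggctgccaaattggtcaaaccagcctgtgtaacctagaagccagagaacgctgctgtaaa

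The word TTAAATA occurs once in each window of Pla2g2a, RatNP-3b and Lyz2 and was not found in that of Cd14. Its first base lies 31 bases before the start of Pla2g2a, 49 before that of RatNP-3b and 28 before that of Lyz2 (positions -31, -49 and -28). It is present in 4.58% of the 33469 promoter windows of 300 bases in the table, which run to 50 bases past the start. The words TATAAA (14.2% of all windows), GGGACTTTC (0.33%), CTTTGAT (3.63%), CTTTGAA (5.40%) and TTGCGCAA (0.17%) were not found on either strand in any of the 4 windows. These words had been listed for the TATA box, nuclear factor kappa B, TCF factors of the Wnt pathway and C/EBP factors. No match says only that these letters are not in the windows. The G and C content of the whole windows of 300 bases, which include 50 bases not printed, was 52.3% for Pla2g2a, 42.7% for RatNP-3b, 46.0% for Lyz2 and 48.3% for Cd14, against a median of 51.7% over all windows.

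Signals are given as deposited, on a linear scale in the arrays' own units. Before ratios were taken, signals of the immobilized rat were multiplied by 1.02, which set the median log2 ratio of measurable probe sets to 0. A signal above 39.9, the median of all signals on both arrays, was taken as above the floor, and a log2 ratio is given only where both arrays passed it. Of the 9 probe sets, 6 passed on both arrays, 3 on neither and 0 on 1 array alone. The technical SD, taken from how far the log2 ratios of 1 gene's probe sets lie apart, was 0.31 (696 genes) and covers error within the pair of arrays alone. Over probe sets below 4 times the floor that SD was 0.31 (159 genes). Spike-in RNAs, which the laboratory adds to each sample, had a median log2 ratio of -0.21, and 7 of their 9 measurable probe sets were lower in the immobilized rat.

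Of the 6 measurable probe sets, 4 were higher by 2-fold or more in the immobilized rat and 0 were lower by as much. They belong to Pla2g2a, RatNP-3b, Lyz2 and Nos2. The other 2, of Cd14 and again of Nos2, were lower by less than 2-fold. A ratio needs both signals above the floor, so a measurable 2-fold drop needs a control signal above 79.8. Only Lyz2 had one (465.0), so the other 5 could not have been counted as lower by 2-fold. The counts of 4 and 0 are therefore not to be read against each other. Of all 4105 measurable probe sets, 2.34% were higher by 2-fold or more and 0.853% were lower by 2-fold or more. Below 4 times the floor, where 5 of the 6 lie, 2.09% of 1774 probe sets were at least 2-fold higher and 0.451% at least 2-fold lower. At 16 or more times the floor, where Lyz2 lies, the shares were 2.31% higher and 1.01% lower of 995. The genes were picked on this same comparison, so nothing is read from their share against these.

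**Figure D1:**
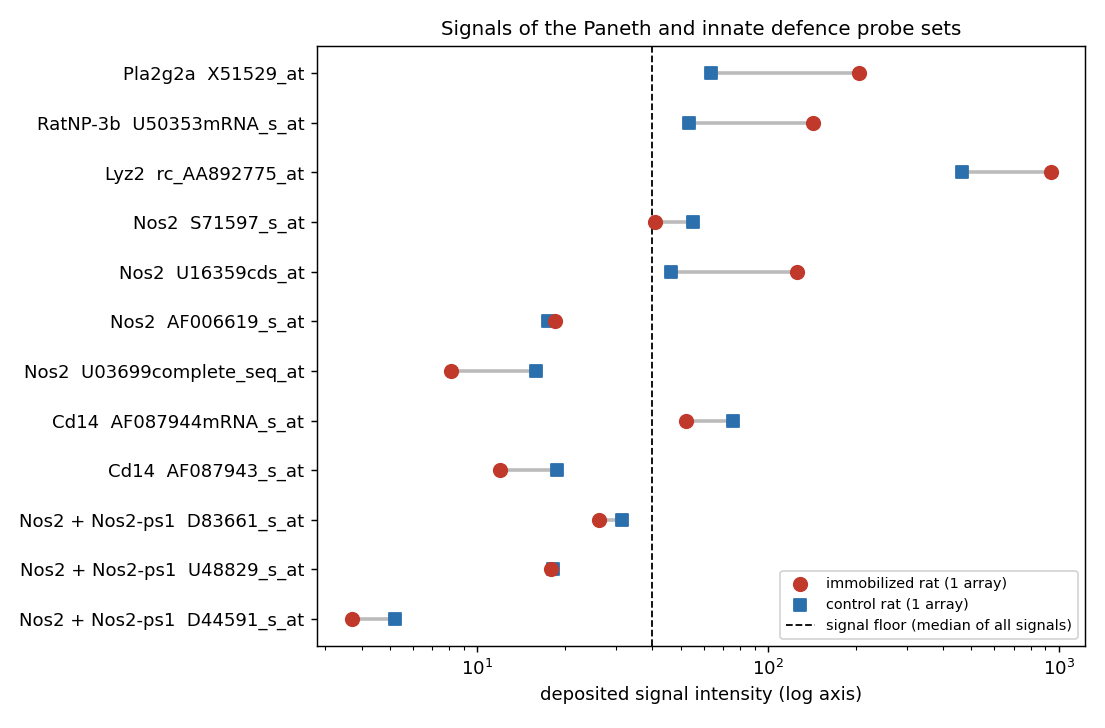
Deposited signal (log axis) of each probe set on the immobilized rat's array (red circles) and the control rat's array (blue squares), with the floor of 39.9 as a dashed line. Pla2g2a, RatNP-3b, Lyz2 and 1 Nos2 probe set lie to the right in the immobilized rat, and the other Nos2 probe sets lie near or below the floor. Of Cd14, AF087944mRNA_s_at lies above the floor and AF087943_s_at below it. The control signals of Pla2g2a, RatNP-3b and Nos2 at U16359cds_at are also not far above the floor.

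Pla2g2a encodes the secreted group IIA phospholipase A2, which hydrolyses the membrane lipids of Gram-positive bacteria. Its probe set X51529_at had a signal of 206.2 in the immobilized rat and 63.4 in the control rat. The ratio after scaling was 3.30-fold, a log2 ratio of 1.72, which is 5.56 times the technical SD. It stood 19th from the top among the 4105 ratios, the highest position among the 6 probe sets. The control signal was 1 reading not far above the floor, and the size of the fold rests on it.

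RatNP-3b, an alpha-defensin, had a signal of 143.2 in the immobilized rat and 53.5 in the control rat at probe set U50353mRNA_s_at. The difference was 2.72-fold, with a log2 ratio of 1.44. The ending _s_at marks probe sets that can match several related transcripts. The RefSeq table lists 14 alpha-defensin loci on chromosome 16, among which RatNP-3b neighbours Defa11, so the signal may hold related defensin transcripts. Only 1 other of these loci, Defa5, has a probe set of its own here. Its deposited signal was 15.2 in the immobilized rat and 17.1 in the control rat, below the floor on both arrays. RefSeq gives ratNP-1 and ratNP-2 as synonyms of Defa5.

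Lyz2 encodes lysozyme, which cleaves the peptidoglycan wall of bacteria, and RefSeq lists Lyz1 as a synonym of this rat gene. Its probe set rc_AA892775_at had a signal of 937.5 in the immobilized rat and 465.0 in the control rat. Both signals were far above the floor, with a mean 17.8 times as high. The difference was 2.05-fold and lay just past the 2-fold line, with a log2 ratio of 1.03 (3.34 times the technical SD). Lyz2 had the smallest ratio of the 4 probe sets past 2-fold and signals farther above the floor than the others.

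Nos2 encodes the inducible nitric oxide synthase, and its probe sets disagreed. Probe set U16359cds_at had a signal of 126.2 in the immobilized rat and 46.4 in the control rat, 2.76-fold higher with a log2 ratio of 1.47. Probe set S71597_s_at had 40.8 in the immobilized rat and 55.3 in the control rat, 1.33-fold lower with a log2 ratio of -0.42. The direction for Nos2 therefore depends on which probe set is read, and each ratio holds a signal near the floor of 39.9. These are 40.8 in the immobilized rat for S71597_s_at and 46.4 in the control rat for U16359cds_at. The S71597_s_at ratio was only -1.34 in units of the technical SD, and its ending _s_at marks possible matches to related transcripts.

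The 2 remaining Nos2 probe sets were below the floor on both arrays. AF006619_s_at had 18.5 in the immobilized rat and 17.5 in the control rat, and U03699complete_seq_at had 8.1 in the immobilized rat and 15.9 in the control rat. The 3 probe sets shared with Nos2-ps1, which lies near Nos2 on chromosome 10, had signals between 3.7 and 31.4 over both arrays and none was above the floor. Of the probe sets that carry the Nos2 symbol, U16359cds_at alone had a measurable difference of 2-fold.

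The log2 ratios of the Nos2 probe sets above the floor lay 1.88 apart, 4.30 times the SD expected of a difference between probe sets of a gene (0.44). The median distance between the lowest and highest probe set was 0.28 over the 696 genes that had several measurable probe sets. Apob, an apolipoprotein (2.30), had a wider distance, and no other gene had one as wide as that of Nos2. A gene with a probe set at least 2-fold higher and another below 0 was found 5 times, Nos2 included. The distance for Nos2 rests on signals near the floor.

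Cd14 encodes the surface and soluble co-receptor for lipopolysaccharide of monocytes and macrophages. Probe set AF087944mRNA_s_at had a signal of 52.2 in the immobilized rat and 75.9 in the control rat. It was 1.43-fold lower, with a log2 ratio of -0.52, which is -1.67 in units of the technical SD. The second probe set, AF087943_s_at, had 12.0 in the immobilized rat and 18.8 in the control rat, below the floor on both arrays. The second probe set therefore gives no ratio, and the direction for Cd14 rests on AF087944mRNA_s_at alone.

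**Figure D2:**
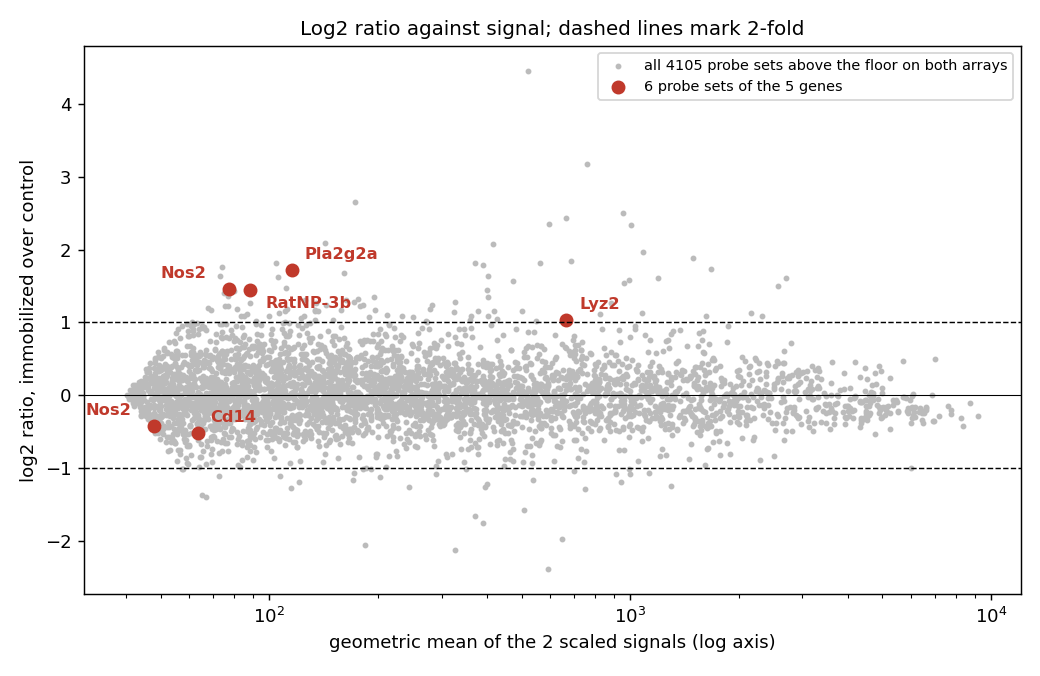
Log2 ratio of immobilized over control (vertical) against the geometric mean of both scaled signals (log axis) for the 4105 probe sets above the floor on both arrays (grey) and the 6 of these 5 genes (red). Pla2g2a, Nos2 and RatNP-3b lie between 1.44 and 1.72 at low signals, Lyz2 at 1.03 at a higher signal, and Cd14 and the other Nos2 probe set at -0.52 and -0.42.

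The scaling of the arrays made little difference to these ratios. With no scaling, or with trimmed mean, quantile or loess scaling, the Pla2g2a log2 ratio stayed between 1.68 and 1.72 and that of Lyz2 between 1.01 and 1.04. The treatment of low signals mattered more. With the floor added to every signal in place of a cutoff, the log2 ratios were 1.27 for Pla2g2a, 0.99 for RatNP-3b, 0.96 for Nos2 (U16359cds_at) and 0.97 for Lyz2, and Pla2g2a alone passed 2-fold. With the floor at the 70th percentile of signals only Lyz2 could be given a ratio.

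**Figure D3:**
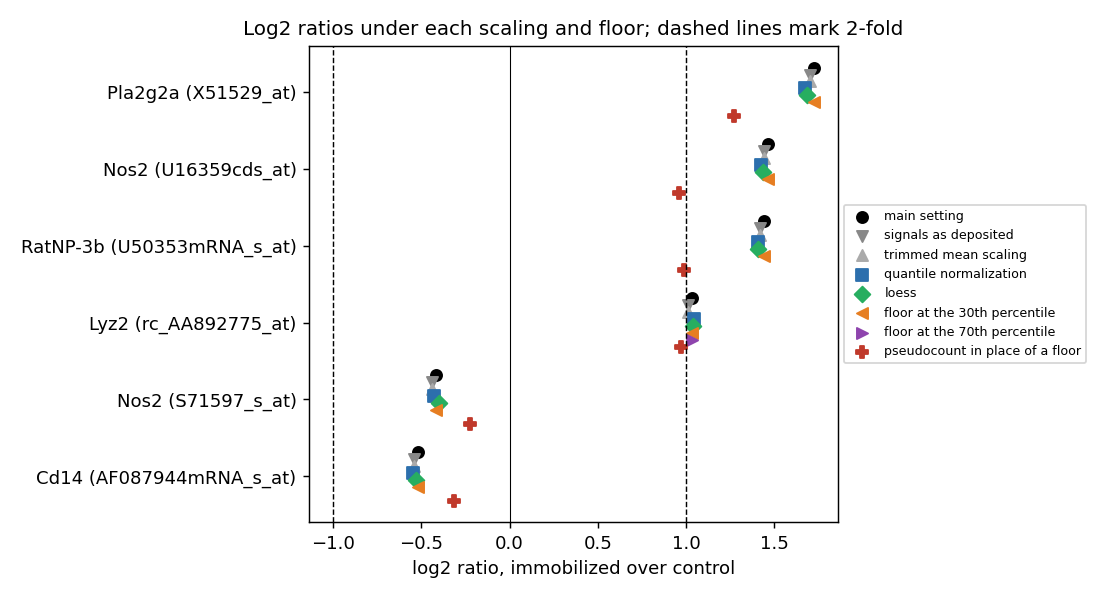
Log2 ratio of immobilized over control for the 6 probe sets under the main setting and each alternative scaling or floor (symbols). Every sign was kept, while adding the floor to all signals (red crosses) brought Nos2 to 0.96, RatNP-3b to 0.99 and Lyz2 to 0.97, below the 2-fold line at 1.

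For each gene, the closest other genes were found by the Euclidean distance between their log2 signals over the 2 arrays, which is a thin basis for likeness. Ccl5 (distance 0.19) and Cdk4 (0.19) were closest to Pla2g2a, and Ccnb1 (0.12) and Fga (0.20) to RatNP-3b. Dnaja2 (0.18) and Nr2f6 (0.24) were closest to Lyz2, Ssrp1 (0.07) and Fga (0.07) to Nos2 at U16359cds_at, and Cdc42bpa (0.07) and Kctd15 (0.08) to Cd14. These genes share the level and the ratio on 1 pair of arrays.

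Markers of the cells that could make these proteins were mostly not measurable. Other Paneth cell markers had a probe set for 4 of 19 listed genes, and 0 of the 4 passed the floor on either array. These were Defa5, the matrix protease Mmp7, which activates defensins in mouse, the receptor Ephb3 and the transcription factor Gfi1. Their deposited signals summed to 74.5 in the immobilized rat and 78.3 in the control rat. Alpha-defensins are also peptides of neutrophils, and RefSeq gives ratNP-1 and ratNP-2 as synonyms of Defa5. Its probe set may thus not be specific to Paneth cells. The array therefore gives no independent measurement of Paneth cells above background, and the cells behind the Pla2g2a, RatNP-3b and Lyz2 signals were not identified. In bulk tissue, a change in the number of cells of a type and a change in RNA per cell cannot be told apart.

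Of 23 neutrophil markers 9 had a probe set, and only the chemokine receptor Cxcr1 passed the floor (log2 ratio 0.25). The calcium-binding proteins S100a8 and S100a9, abundant in neutrophils, had deposited signals of at most 7.7 on both arrays. The deposited signals of the 9 summed to 130.7 in the immobilized rat and 129.5 in the control rat. Of 22 macrophage markers 7 had a probe set and 3 passed the floor, the complement chains C1qb (0.43, and 0.21 at another probe set) and C1qc (-0.39) and the cathepsin Ctss (-0.02). The deposited signals of the 7 summed to 3892 in the immobilized rat and 3928 in the control rat, and the sum in the immobilized rat was 3952 after scaling, so its direction turned with the scaling. The other leukocyte markers had 3 of 12 genes above the floor, with Cd3g (0.62), Gzmb (0.08, and -0.45 at another probe set) and Cd4 (-0.37), and deposited sums of 427 in the immobilized rat and 421 in the control rat. None of the markers above the floor in these 3 lists differed by 2-fold, while 2.02% of the 2524 genes above the floor were at least 2-fold higher and 0.674% at least 2-fold lower.

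Markers of some other cell types differed between the arrays in the same comparison. Of 18 exocrine pancreas genes above the floor, 17 were higher in the immobilized rat, 6 of these by 2-fold or more, with a median log2 ratio of 0.75 and summed deposited signals of 14414 in the immobilized rat and 7909 in the control rat. Over all genes the median was -0.01, 49.4% were higher and 2.02% were at least 2-fold higher. Smooth muscle markers had 3 of 5 genes higher (median 0.51), led by Acta2 (1.68), whose other probe set had -0.13. The mast cell protease Mcpt1 was at 1.19 and the tryptase Tpsb2 at -0.31. Enterocyte markers, which fit the label of epithelial cells, were above the floor for 12 of 12 genes with a probe set. Of these, 11 of 12 were lower (median -0.28), as were 3 of 3 goblet cell markers (median -0.23). Some enterocyte probe sets disagreed in size. Si had -0.28 and -1.66 at another probe set, and Anpep had -0.01 and -0.74. Lct, the gene counted as higher, had 0.41 and -0.002 at its other probe set. The part of these differences in the Pla2g2a, RatNP-3b, Lyz2 and Nos2 values was not tested.

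Few of the other secreted defence genes were measurable. Of 11 with a probe set, 4 passed the floor in both rats, and these 4 were lower in the immobilized rat, 2 of them by 2-fold or more, while 50.6% of all 2524 genes were lower and 0.674% by 2-fold or more. The lectin Reg3b, which binds bacterial surfaces, had a log2 ratio of -2.39 and its relative Reg3g one of -1.98. Reg1a had -0.52 (-0.18 at another probe set) and the mucin Muc2 -0.23. Defb1, a beta-defensin of epithelia, was below the floor in the immobilized rat (deposited signal 30.8) and had 69.0 in the control rat, a difference of at least 1.73-fold. The difference between these genes and Pla2g2a, RatNP-3b and Lyz2 was not tested.

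The genes that sense lipopolysaccharide were mostly below the floor. Of 12 genes of lipopolysaccharide and Toll-like receptor signalling with a probe set, 4 passed on both arrays. All had ratios below 0 but none by 2-fold, while 50.6% of all 2524 genes were lower. The chemokine Ccl2 had a log2 ratio of -0.77, the inhibitor of nuclear factor kappa B Nfkbia -0.57 (-0.83 at another probe set), Nfkb1 -0.05 and the cytokine Il1b -0.02. The ratios of Nfkb1 and Il1b were smaller in size than the technical SD of 0.31. Tlr4, the receptor to which Cd14 presents lipopolysaccharide, Lbp, the carrier protein that delivers it, and the cytokines Tnf and Il6 were not above the floor on either array. The adhesion molecule Icam1 passed it in the immobilized rat alone, a difference of at least 1.74-fold.

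Of 19 genes of nitric oxide and arginine metabolism with a probe set, 11 passed the floor on both arrays. Of these, 5 were higher and 6 lower (median -0.03), none at 2-fold, while 49.4% of all 2524 genes were higher and 50.6% lower. The brightest probe sets of Asl and Ddah1 passed the floor in the immobilized rat alone. These were differences of at least 1.72-fold and 1.34-fold, while another Asl probe set had a log2 ratio of 0.03. Calm2, a calmodulin gene whose product binds nitric oxide synthases, had 0.42 and Pde5a, which degrades cyclic GMP, 0.15. The endothelial synthase Nos3 had -0.67 (up to -0.13 over its measurable probe sets) and the kinase Prkg2 -0.28. Gch1, the first enzyme of tetrahydrobiopterin synthesis, a cofactor that Nos2 needs, had -0.20, with signals of 1187 after scaling in the immobilized rat and 1365 in the control rat, while its probe sets ranged from -0.29 to 0.56.

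Genes of phospholipase A2 and eicosanoid metabolism had 4 of 10 members higher, 1 of them by 2-fold or more, and 6 lower (median -0.06). Over all 2524 genes above the floor, 49.4% were higher, 50.6% were lower and 2.02% were at least 2-fold higher. The pancreatic phospholipase Pla2g1b was 2.42-fold higher (log2 ratio 1.28) and the calcium-independent Pla2g6 was at 0.95. The receptor Ptgfr had -0.77 and Hpgd, which breaks down prostaglandins, -0.46. The lipoxygenase Alox15 passed the floor in the immobilized rat alone, a difference of at least 2.69-fold. Pla2g1b is also a pancreas marker, and the arachidonate-releasing Pla2g4a and the cyclooxygenase Ptgs2 were not above the floor on either array. Second probe sets of Alox15, Icam1 and Defb1 gave no ratio, as not both of their signals passed the floor.

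**Figure D4:**
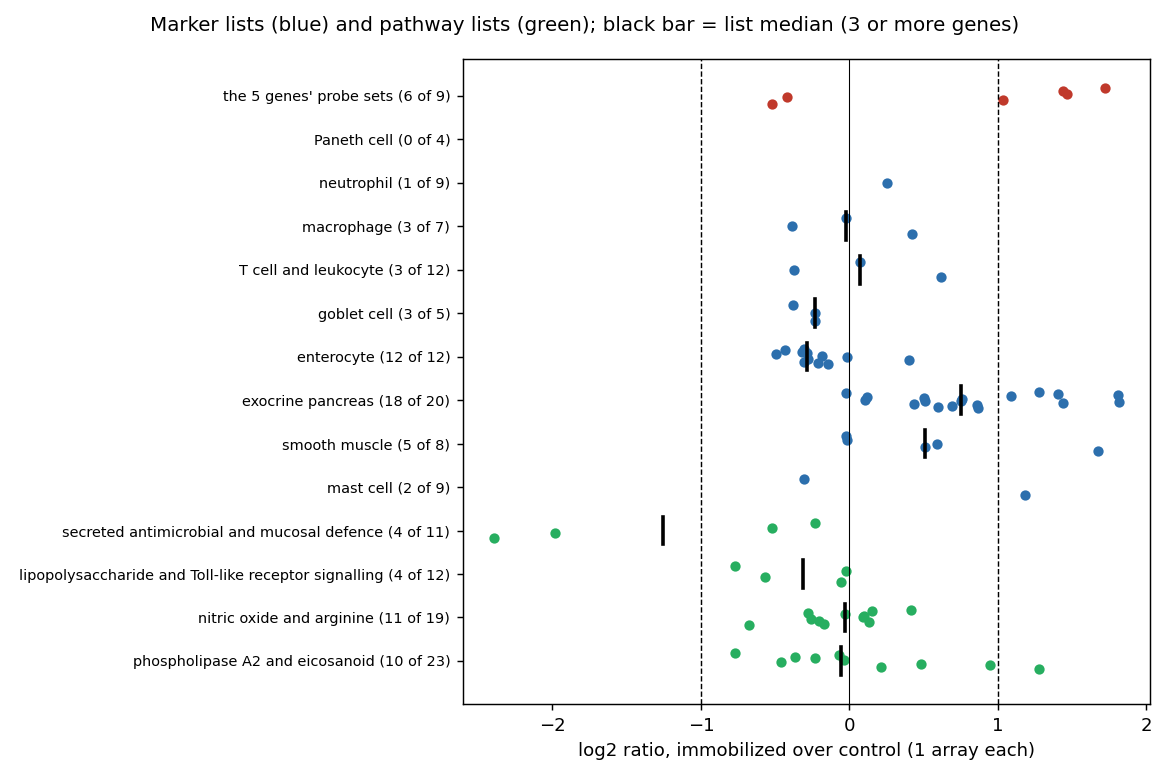
Log2 ratio of immobilized over control for the probe sets of the 5 genes (red), for 9 marker lists (blue) and for 4 pathway lists (green), each point 1 gene above the floor on both arrays and the bar the list median. Labels give the number above the floor of the number on the array. No Paneth cell marker has a point, 17 of 18 exocrine pancreas genes lie above 0, and the 4 secreted defence genes lie below 0.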

How the data were processed

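Duodenal mucosa of 1 immobilized and 1 control rat was measured on 1 rat U34A array each. The authors deposited 1 linear signal intensity for each probe set and array. The submitters' processing notes name MAS5, and per the series' design text the manufacturer's software, version 4.0, filtered and normalized them. Detection calls were not used here. Of 8799 probe sets, 59 array controls were left out. Probe sets with 1 symbol in the array annotation (7006) were named, 6985 of them through RefSeq gene IDs, and the 308 with several symbols were not.

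The immobilized array was scaled by 1.02 and the floor was the 50th percentile of all signals. A probe set above the floor on 1 array has a bound, its signal over the floor. Lists used the brightest probe set of each gene. At least 2-fold was the threshold for counts, and the counting was tested on simulated data with changes set only in probe sets well above the floor. Recovery of changes nearer the floor, where all measurable probe sets of the genes studied but that of Lyz2 lie, was not tested. There was no test between groups. One planned gene list is not reported here.

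Genes named were every probe set of the 5 genes, up to 2 highest and 2 lowest genes per list with any past 2-fold, and the 2 nearest genes. Some pancreas genes past 2-fold are given by count only, and list members below the floor on either array were named after their values were seen. Gch1 and Si, above the floor on both arrays, were also named outside the rule of highest and lowest genes. The members and lists were chosen with earlier results of these data known. Alternatives were the scaling (deposited, 2% trimmed mean, quantile, loess of span 0.3), the floor (30th or 70th percentile, or added to every signal), the threshold (1.5-fold or 3-fold), bounds counted, and the mean over probe sets. Python 3.11.15, numpy 2.4.6, pandas 2.3.3, statsmodels 0.14.6 and matplotlib 3.10.9 were used.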

Additional observations from a re-analysis of the deposited data

How the results depend on the processing

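No paired analysis was possible because each group has 1 array, and for the same reason no replicate could be left out. The count of 4 probe sets of the 5 genes at least 2-fold higher fell to 1 when the floor was raised to the 70th percentile (Lyz2), to 1 when it was added to every signal (Pla2g2a) and to 1 at a threshold of 3-fold (Pla2g2a). Under the floor added to every signal the log2 ratios were 1.27 for Pla2g2a, 0.99 for RatNP-3b and 0.96 for Nos2 (U16359cds_at), which by construction pulls low signals towards 0. No log2 ratio of the 6 probe sets changed sign under any scaling or floor that gave a value. Over all probe sets, the 96 at least 2-fold higher were 209 and the 35 lower were 127 with the floor at the 30th percentile, 48 were higher with it at the 70th, 364 and 224 were past 1.5-fold, and 25 and 6 past 3-fold. Below 4 times the floor, a range chosen after seeing the data, 37 were higher and 8 lower. The median of secreted defence genes was -1.25, against -0.83 when the floor was lowered to the 30th and -0.26 with it added to every signal. The lipopolysaccharide list median ranged from -0.38 to -0.05. The medians of the macrophage, leukocyte, nitric oxide and eicosanoid lists lay near 0 and turned sign under at least 1 alternative. Signals near the floor limit the ratios of Pla2g2a, RatNP-3b, Nos2 and Cd14.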
